A study of Mus musculus with 6 samples.

Results

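The regions described here were accessible sites called by ATAC-seq in each of the 3 OB Fam20c f/f libraries and in none of the 3 OB Fam20c KO libraries. Peaks of the 6 libraries were joined into 1 region where they overlapped by at least 1 bp, and only chromosomes 1 to 19 and X were used. Chromosome 13, 15 Mb of chromosome 4 from 90 Mb on and chromosome 16 from 20 to 40 Mb were left out, because peaks were missing there over long stretches of the KO lists. These f/f-only regions numbered 2671, of 89410 merged regions in all and of 83456 outside the left-out segments. That is 3.2% of the regions outside these segments and 5.32% of the 50164 regions there that every f/f library called, named common f/f regions below. Regions called in all 6 libraries are named shared regions. The left-out segments held another 680 f/f-only regions. Presence and absence of peaks chose the regions, so that their absence from KO is no finding of its own and was not tested.

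OB Fam20c f/f is an immortalized mouse osteoblast line with floxed Fam20c alleles, and OB Fam20c KO was derived from it with a lentivirus that carries Cre recombinase. Both groups are therefore 1 line and 1 derivative of it, and the KO cells also differ by the infection. Each library came from 50000 cells after treatment with Tn5 transposase for 30 min at 37 °C. Nothing in the labels says that the 3 libraries of a group came from separate cultures, so that spread between them may be technical.

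ATAC-seq uses a transposase that cuts and tags DNA where nucleosomes leave it free, and a peak marks a stretch with more cuts than its surroundings. Promoters of active genes are open in most cell types, whereas distal sites such as enhancers differ more between cells and states. FAM20C is a kinase of the secretory pathway that phosphorylates secreted proteins of bone and teeth. A site absent from a list did not pass the threshold of peak calling in that library, which does not show that the site was closed.

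Replicates 1, 2 and 3 of f/f had lists of 64033, 62781 and 74797 peaks, and those of KO 64141, 64582 and 32958. KO replicate 3 thus stood apart with a short list, whose length is not a measure of its depth. Without it the rule gave 2696 f/f-only regions. Osteoblast markers had a region with a peak for 10 of 12 genes in every library except KO replicate 3, where 9 did, and the defining markers Ibsp and Bglap had none in any library. Markers of other cell types had regions too, 4 of 5 chondrocyte and 4 of 5 adipocyte markers in the same 5 libraries, so that peaks at marker genes do not set these cells apart as osteoblasts. The Fam20c span (chr5:138755081-138810063, mm10) held no f/f-only region. The region over its start, chr5:138754183-138756831, had a peak in all 6 libraries, and peak lists do not show whether the floxed part was removed.

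Sequence was at hand only for promoters, from RefSeq on GRCm38.p6, whose coordinates are those of mm10. Short motifs were searched on both strands in windows from 250 bases before to 50 bases after a start. Among f/f-only regions over a protein-coding start that held the 250 bases before it whole, the 7 with the highest standing are shown by these bases, 5′ to 3′ on the strand of the gene. Capitals mark the TEAD motif GGAATG, the RUNX motif TGTGGT, the E-box CAGCTG and the AP-1 motif TGANTCA, or their reverse complements. Dmrta2 encodes a DM-domain transcription factor of the developing brain (chr4:109977775-109978024, plus strand), Ldhb a lactate dehydrogenase subunit (chr6:142507958-142508207, minus strand) and Cers4 a ceramide synthase (chr8:4493155-4493404, plus strand). Atp9a encodes a P-type ATPase of endosomes (chr2:168742137-168742386, minus strand), Adgrg2 an adhesion receptor known from the male tract (chrX:160390440-160390689, plus strand), Mlxipl the carbohydrate-responsive factor ChREBP (chr5:135106641-135106890, plus strand) and Rbp4 the retinol carrier of plasma (chr19:38124812-38125061, minus strand).
Dmrta2: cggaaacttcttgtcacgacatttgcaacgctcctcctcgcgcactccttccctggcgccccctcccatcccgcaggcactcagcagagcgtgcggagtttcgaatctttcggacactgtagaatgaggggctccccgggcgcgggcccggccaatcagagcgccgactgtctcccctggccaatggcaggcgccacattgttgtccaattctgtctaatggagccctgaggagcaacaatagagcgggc
Ldhb: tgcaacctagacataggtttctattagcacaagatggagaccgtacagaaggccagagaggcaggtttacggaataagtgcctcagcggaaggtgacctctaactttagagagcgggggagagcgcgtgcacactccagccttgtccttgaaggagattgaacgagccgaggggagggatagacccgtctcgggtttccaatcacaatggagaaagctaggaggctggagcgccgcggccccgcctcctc
Cers4: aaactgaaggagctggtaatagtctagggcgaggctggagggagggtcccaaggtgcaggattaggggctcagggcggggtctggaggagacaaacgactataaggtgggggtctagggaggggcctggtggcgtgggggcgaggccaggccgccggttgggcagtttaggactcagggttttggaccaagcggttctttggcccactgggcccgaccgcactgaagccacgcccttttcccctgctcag
Atp9a: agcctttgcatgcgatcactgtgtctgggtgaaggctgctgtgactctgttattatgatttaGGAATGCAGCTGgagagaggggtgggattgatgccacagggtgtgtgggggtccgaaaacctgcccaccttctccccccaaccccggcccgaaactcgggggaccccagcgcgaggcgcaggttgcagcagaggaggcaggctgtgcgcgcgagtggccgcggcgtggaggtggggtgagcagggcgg
Adgrg2: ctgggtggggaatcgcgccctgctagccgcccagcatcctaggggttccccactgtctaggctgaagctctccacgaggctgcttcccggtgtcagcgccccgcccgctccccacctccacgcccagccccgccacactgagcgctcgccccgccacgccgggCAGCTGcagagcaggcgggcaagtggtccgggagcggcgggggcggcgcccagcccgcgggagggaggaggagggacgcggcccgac
Mlxipl: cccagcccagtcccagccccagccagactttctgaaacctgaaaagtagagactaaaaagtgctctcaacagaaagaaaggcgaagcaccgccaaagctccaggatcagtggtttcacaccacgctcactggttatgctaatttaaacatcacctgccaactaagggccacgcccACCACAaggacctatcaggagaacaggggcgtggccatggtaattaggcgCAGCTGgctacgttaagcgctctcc
Rbp4: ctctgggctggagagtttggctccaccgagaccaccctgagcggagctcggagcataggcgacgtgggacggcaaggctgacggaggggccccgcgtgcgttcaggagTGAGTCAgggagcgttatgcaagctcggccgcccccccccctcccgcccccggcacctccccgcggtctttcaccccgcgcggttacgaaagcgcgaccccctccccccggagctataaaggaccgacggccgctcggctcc
The first 3 of these held none of the motifs. Atp9a held a TEAD motif directly followed by an E-box, Adgrg2 an E-box, Mlxipl a reversed RUNX motif and an E-box, and Rbp4 an AP-1 motif. The GC content of the 250 bases was 61.6% at Dmrta2, 56.4% at Ldhb, 63.2% at Cers4 and 64.0% at Atp9a. It was 75.6% at Adgrg2, 53.2% at Mlxipl and 70.8% at Rbp4.

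f/f-only regions overlapped 95 promoter windows of 88 genes. These windows had a median GC content of 56.7% and 12 CpG dinucleotides, against 62.0% and 22 in the 11873 windows under shared regions. Over all 30607 windows the medians were 53.0% and 7, so that the windows at f/f-only regions lay between the others. The AP-1 motif stood in 10 of the 95 windows (10.5%), against 5.15% at shared regions and 7.81% of all windows. The TEAD motif stood in 16.8%, against 11.6% and 14.6%. The RUNX motif, bound by the osteoblast factor RUNX2, stood in 14.7%, against 11.6% and 16.6%. The E-box CAGCTG stood in 15.8%, against 14.96% and 16.4%. The CRE motif, bound by CREB, stood in 0 of the 95 windows, against 3.27% and 1.78%, and the CTCF core motif in 0 of the 95 and in 3 of all windows. With 95 windows these shares are coarse and describe letters only.

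The f/f-only regions were narrow and ranked low in the f/f lists. Their median width was 521 bp, with a range from 236 to 1960 bp, against 904 bp for common f/f regions and 1111 bp for the 28467 shared regions. Since the values of a peak depend on the depth and background of its library, each peak was given a standing, its percentile by −log10 q within its own list, where 100 is the highest. The mean standing over the 3 f/f lists had a median of 24.1 for f/f-only regions (lowest 0.921, highest 72.7). It was 59.1 for common f/f regions and 76.9 for shared regions. Only 87 f/f-only regions (3.26%) had a mean standing above 50, and 36 stood above 50 in each of the 3 lists.

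The median standing of f/f-only regions was 20.6 in f/f replicate 1, 20.6 in replicate 2 and 32.0 in replicate 3. Their median −log10 q was 7.68, 7.16 and 14.7 and their median fold over local background 4.61, 3.57 and 4.81 in the same order. Replicate 3, which had the longest list, held the highest standing of the 3 in 1823 of the 2671 regions. The same was true of the common f/f regions, 34506 of 50164. Across regions, the Spearman correlation of the standing between pairs of f/f libraries was 0.607 to 0.676 for f/f-only regions and 0.955 to 0.966 for common f/f regions, a description over regions that share their libraries and, in the first case, a narrow range of ranks. The summits of the 3 libraries lay within 69 bp of each other at the median, and within 100 bp in 66.7% of f/f-only regions, against 76.7% of common f/f regions.

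**Figure D1:**
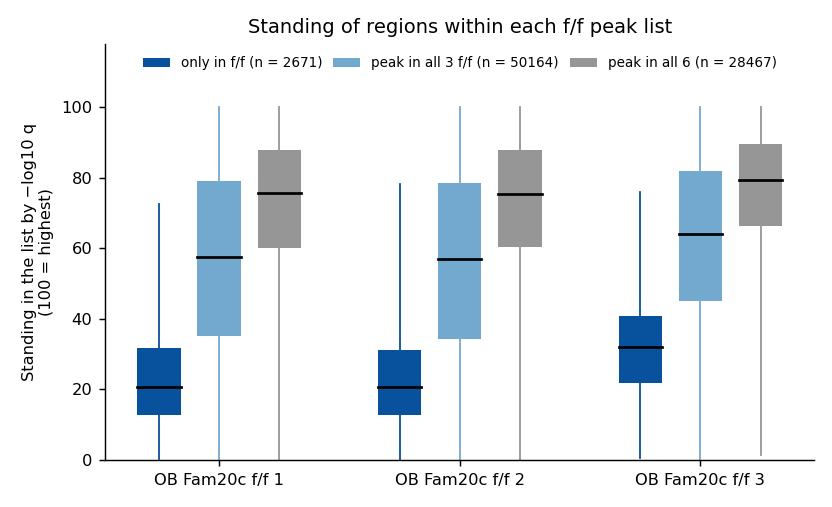
Standing of regions within each OB Fam20c f/f peak list (percentile by −log10 q, 100 = highest), shown for f/f-only regions, common f/f regions (peak in all 3 f/f) and shared regions (peak in all 6). Boxes span the interquartile range, black lines are medians and thin lines reach the lowest and highest region; the f/f-only boxes lie lowest in each library, with medians of 20.6, 20.6 and 32.0.

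When the 50164 common f/f regions were split into deciles of mean standing, the share that was f/f-only was 25.3% in the lowest decile, 14.9% in the next and 7.68% in the third. It was 3.79% in the fourth decile, 1.28% in the fifth and 0.259% in the sixth. No region of the highest 3 deciles was f/f-only. The lowest decile held 47.6% of all f/f-only regions and the next 27.9%. Where a region stood in the f/f lists was thus closely tied to whether any KO list held it. When the same number of peaks, 32958, was taken from each list, the rule gave 889 regions, and 39 of the 2671 overlapped them, since the lower-ranked peaks of the f/f lists were then not used.

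**Figure D2:**
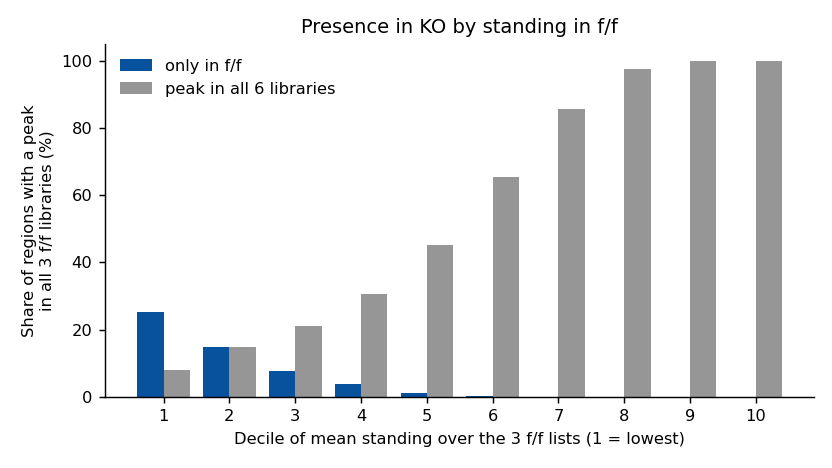
Share of common f/f regions that were f/f-only or had a peak in all 6 libraries, in percent, by decile of mean standing over the f/f lists (1 = lowest). The f/f-only share falls from 25.3% in the lowest decile to 0 in the highest 3 deciles, where nearly every region had a peak in all 6 libraries.

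The regions just outside the rule outnumbered those inside it. Exactly 1 KO library joined the 3 f/f libraries at 2946 regions, with a median f/f standing of 28.2. Of these, 1263 had the peak in KO replicate 1, 1657 in replicate 2 and 26 in replicate 3. A peak in 2 f/f libraries and no KO library was found in 3731 regions, with a median f/f standing of 15.1. Common f/f regions with a peak in 2 KO libraries numbered 16080, of which 16024 were missing from KO replicate 3 only. The opposite pattern, a peak in all 3 KO libraries and in no f/f library, was found in 158 regions, 0.189% of those outside the left-out segments. It asks for a peak in KO replicate 3, whose list held only 32958 peaks, so that its count is not on a par with that of f/f-only regions. A peak in 2 KO libraries and in no f/f library was found in 2434 regions.

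f/f-only regions lay mostly away from gene starts. A protein-coding start was within 1 kb of 141 of them, 5.28% (exact binomial 95% interval 4.46 to 6.20, counting error only), against 23.2% of common f/f regions and 36.7% of shared regions. Their median distance to the nearest start was 25088 bp, against 14692.5 and 7757 bp. Outside every annotated gene span lay 1017 of them, 38.1% (36.2 to 39.9), against 29.6% and 23.9%. Of all 83456 merged regions outside the left-out segments, 15.7% were within 1 kb of a start and 33.1% outside every gene span. A protein-coding span held 1428 (53.5%), and 226 (8.46%) lay only in a span of another kind of gene. At 952 regions (35.6%) the site was inside a protein-coding gene and over 10 kb from any start, against 28.4% of common f/f regions.

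Seen by distance, 58 of the 10484 common f/f regions that lay over a start were f/f-only, 0.553%. The share was 7.08% up to 1 kb from a start, 6.10% from 1 to 5 kb, 6.44% from 5 to 10 kb and 6.26% from 10 to 50 kb. It was 7.80% from 100 to 500 kb and 11.4% (40 of 351 regions) beyond 500 kb. The regions over a start also stood highest in the f/f lists, with a median standing of 88.3, against 56.6 up to 1 kb away and 47.0 beyond 500 kb. At like standing, the share over starts was lower than farther away in each decile from the lowest to the fourth. In the fifth it lay between the shares of the other places. Within the lowest decile of standing, 26 of 168 regions over a start were f/f-only (15.5%), against 42 of 132 up to 1 kb away (31.8%) and 25.99% of those over 10 kb away. In the next decile these shares were 7.01%, 17.3% and 14.97%, and in the third 7.03%, 8.06% and 7.56%. In the fourth they were 1.32%, 5.56% and 3.47%, and in the fifth 1.48%, 1.68% and 1.25%. These differences were not tested, since the rule used the standing's own libraries.

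**Figure D3:**
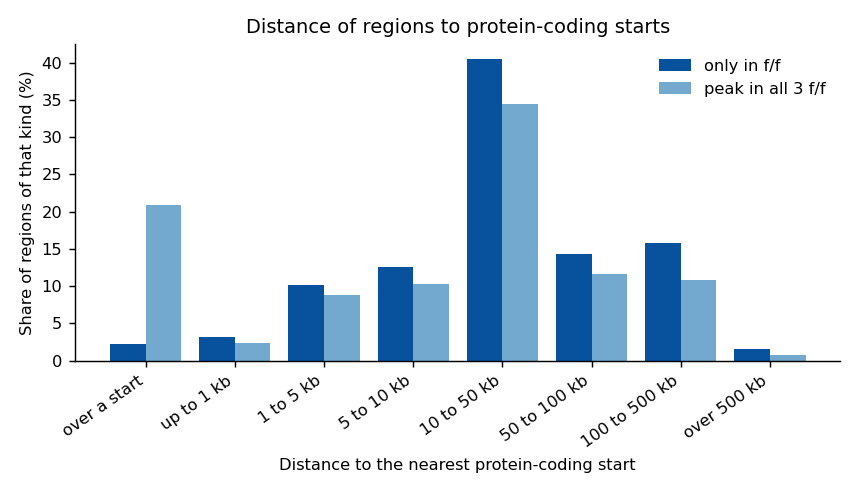
Share of f/f-only regions and of common f/f regions, in percent of each kind, by distance to the nearest protein-coding start. Regions over a start make up 2.17% of the f/f-only regions and 20.9% of the common f/f regions, and every bin beyond them holds a larger share of the f/f-only regions.

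The f/f-only region with the highest standing, chr14:67484578-67486084, lay in the noncoding gene Gm38409, 53626 bp from the start of Ebf2, a transcription factor of the early B-cell factor family with roles in fat and bone cells. Its standing was 66.7, 78.2 and 73.1 in f/f replicates 1, 2 and 3, its fold over local background 8.72, 9.79 and 8.68. Next came the region over the Dmrta2 start, chr4:109977361-109978718, at 68.9, 69.9 and 69.7, so that the 3 libraries placed it nearly alike. It lay 5 Mb beyond the left-out part of chromosome 4. A region in Acsl3, which encodes an acyl-CoA synthetase (chr1:78704610-78705527), stood at 66.8, 65.5 and 76.0.

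Further regions of high standing were spread over the genome. A narrow one near Dpy30, a subunit of histone H3 lysine 4 methyltransferase complexes (chr17:74327990-74328407), stood at 64.4, 65.2 and 72.6, with all 3 summits at the same base. Another lay 38466 bp from the start of Myod1, the muscle determination factor (chr7:46337247-46338008), and stood at 68.8, 61.6 and 70.0. The remaining 5 of the highest 10 lay in the predicted gene Gm46752 and in Zfp423, Pdzd2 and Rnf130, and 9925 bp from the start of Ccl1. Their mean standing was 67.4, 66.8, 66.6, 65.3 and 63.0. In Rnf130 (chr11:50114475-50114735) replicate 2 stood lower, at 54.3, than replicates 1 and 3, at 72.6 and 69.1. No KO list held a peak at any of these 10 regions, which the rule fixes.

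At starts, Dmrta2 was followed by Ldhb (chr6:142507732-142508326), at 65.2, 45.4 and 61.6, and Cers4 (chr8:4492742-4494188), at 47.4, 58.6 and 64.1. The order of the libraries thus differed from region to region. Atp9a stood at 47.4, 49.2 and 61.6, Adgrg2 at 42.4, 55.5 and 56.2, and Mlxipl at 54.5, 36.5 and 60.5. Eomes, a T-box factor of early development and of T cells, had its region 195 bp from a start (chr9:118478384-118479344), at 38.0, 52.0 and 59.3. Meikin, which encodes a meiotic kinetochore protein, Olfr149, an olfactory receptor, and Rbp7, a cellular retinol-binding protein, had regions 791, 119 and 748 bp from a start, with a mean standing of 54.0, 51.3 and 48.0. Several of these genes are known from tissues other than bone.

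Of 20542 protein-coding genes outside the left-out segments, 1281 (6.24%) held at least 1 f/f-only region in their span, 152 held 2 or more and 28 held 3 or more. The 28 were long genes. Their median length was 388 kb, against 70.5 kb for genes with 1 or 2 f/f-only regions and 15.9 kb for genes with none, and 27 of them were over 100 kb. Of all 2283 genes over 100 kb, 22.4% held an f/f-only region. The 28 genes held 94 of the regions together.

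Zfp423 held the most, 6 of its 8 common f/f regions. It encodes a zinc finger factor that binds early B-cell factors and acts in fat cell commitment. Inside its span of 300 kb on chromosome 8, f/f replicates 1, 2 and 3 had 9, 10 and 11 regions with a peak, and KO replicates 1, 2 and 3 had 2, 1 and 0. The strongest f/f-only region, chr8:87790804-87791630, stood at 71.7, 59.3 and 69.3, and another, chr8:87701672-87703166, at 46.7, 52.8 and 56.9. The other 4 f/f-only regions had a mean standing of 13.5 to 26.5. Near the start-side end of the gene, the region chr8:87958571-87959424 had peaks in 5 libraries, at 44.2, 41.3 and 53.6 in f/f and at 41.8 and 38.4 in KO replicates 1 and 2. The region chr8:87810692-87812652 stood at 50.0, 52.2 and 58.0 in f/f and had a peak in KO replicate 1 alone, at 4.20. KO replicates 1 and 2 thus had a peak 3.06 kb from the start-side end. The f/f-only region chr8:87960310-87960776 lay closer to that end, at 1.51 kb. KO replicate 3 had no peak in the span.

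**Figure D4:**
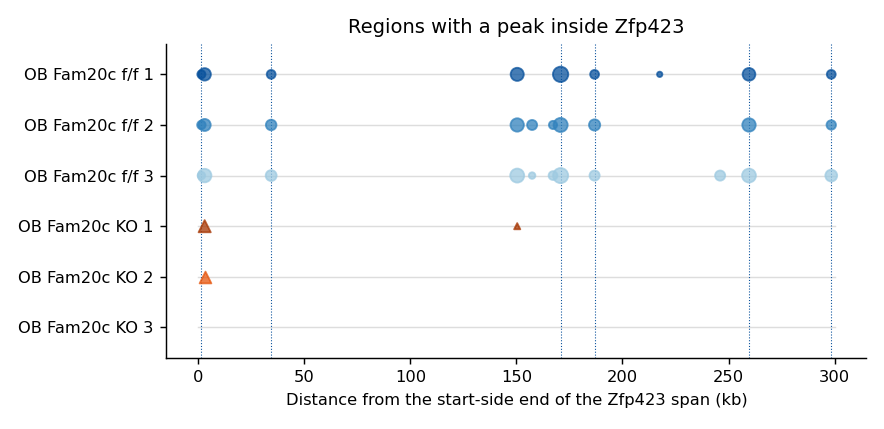
Regions with a peak inside the Zfp423 span in each library, by distance in kb from the start-side end of the gene. Symbol size grows with standing, circles are OB Fam20c f/f and triangles OB Fam20c KO libraries, and dotted lines mark the 6 f/f-only regions; the f/f libraries hold 9, 10 and 11 regions and the KO libraries 2, 1 and 0.

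Among other transcription regulators, Bbx, an HMG-box factor, held 4 f/f-only regions of 10 common ones, and its span had 11, 11 and 17 regions with a peak in the f/f libraries against 5, 7 and 2 in the KO libraries. Rere, an atrophin family corepressor, held 3 of 15. Genes of synapses and of the neuronal matrix were also among the 28. Grin2b, an NMDA receptor subunit, held 3 of 5, Dlg2, a postsynaptic scaffold, 3 of 18, and Tnr, the matrix protein tenascin R, 3 of 12. The strongest of these regions was in Grin2b (chr6:135826477-135827549), at 60.8, 51.7 and 61.9. Grin2b had no region with a peak in all 6 libraries, and its span had 6, 5 and 5 regions with a peak in the f/f libraries and 2, 2 and 0 in the KO libraries.

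Cadherins and guidance cues were represented by Cdh22 with 3 of 5, Cdh12 with 3 of 8, the semaphorin Sema5a with 4 of 16 and the Robo ligand Slit3 with 3 of 18. In Sema5a, 1 region stood at 49.9, 41.1 and 56.2 (chr15:32437578-32438069), whereas the other 3 had a mean standing of 2.69 to 10.7, close to the lower end of the lists. Sema5a had 19, 21 and 23 regions with a peak in the f/f libraries and 20, 21 and 9 in the KO libraries, so that KO replicates 1 and 2 had as many as the f/f libraries in spite of the 4 f/f-only sites. Cdh12 was the gene where KO replicate 3, with its short list, had more regions than its group, 15 against 8 and 9, and the f/f libraries had 11, 16 and 13.

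Genes of the actin skeleton and muscle were Palld, an actin-bundling protein, with 3 of 14, Dlc1, a GTPase-activating protein, with 3 of 13, Gas7 with 4 of 15, Cgnl1, a junction protein, with 3 of 13, Myo3b, an unconventional myosin, with 3 of 13, Dysf, the membrane repair protein dysferlin, with 3 of 10, and Tnni3k, a cardiac kinase, with 3 of 4. The strongest region in Palld (chr8:61642037-61642870) stood at 46.1, 45.4 and 60.9, and that in Gas7 (chr11:67622028-67623631) at 56.2, 43.8 and 52.3. Gas7 had 17, 17 and 22 regions with a peak in the f/f libraries and 11, 9 and 4 in the KO libraries. In Palld the f/f libraries had 17, 16 and 21, and the KO libraries 12, 15 and 8.

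The remaining genes with several f/f-only regions were Pdzd2, with 5 of 20, Lrmda, with 4 of 7, Pakap, with 4 of 29, and, with 3 each, Pinx1, Agbl4, Ptpn3, Tex2, Adamtsl1, Atrnl1 and Megf11. Pdzd2, a protein with many PDZ domains, had 24 regions with a peak in KO replicates 1 and 2, against 23, 24 and 35 in f/f. Lrmda, known from melanocyte differentiation, had 10, 7 and 14 in f/f and 3, 3 and 0 in KO, with no region shared by all 6. Over the 28 genes, 22 had fewer regions with a peak in both KO replicates 1 and 2 than in each f/f library, and 5 had no region with a peak in all 6. These counts lean on the rule, since the genes were picked for sites missing from KO.

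**Figure D5:**
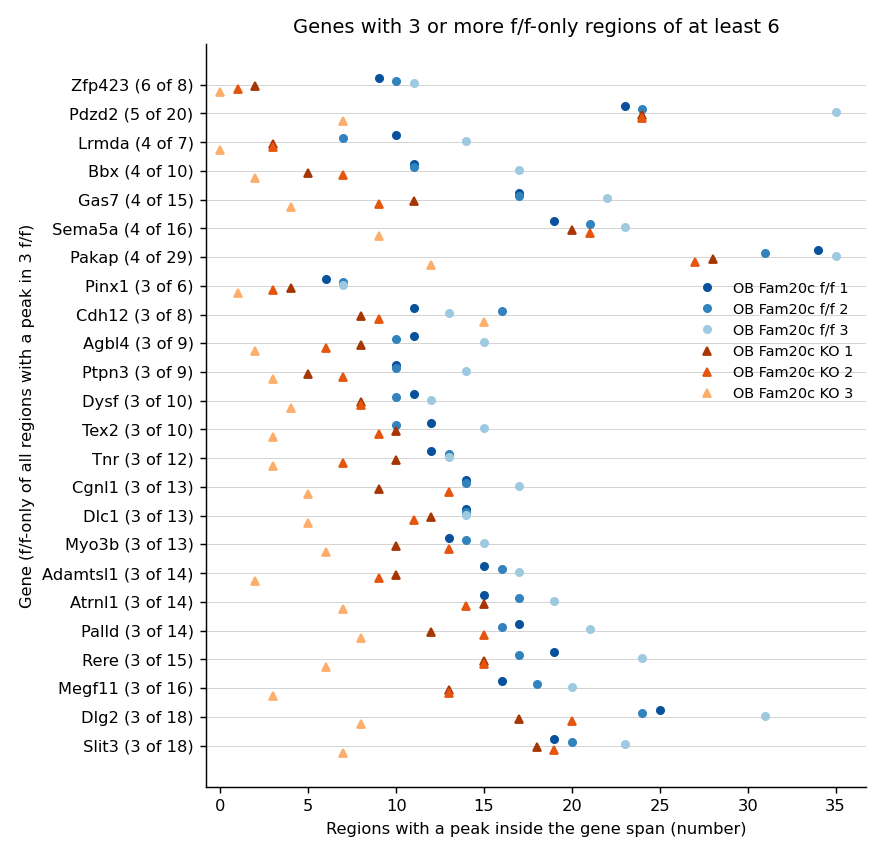
Number of regions with a peak inside the span of each of 24 genes, those with 3 or more f/f-only regions and at least 6 common f/f regions, by library (circles, OB Fam20c f/f; triangles, OB Fam20c KO). Zfp423, with 9, 10 and 11 regions in f/f and 2, 1 and 0 in KO, lies at the top, whereas in Sema5a KO replicates 1 and 2 overlap the f/f libraries.

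For the gene lists of pathways, a region was counted where it lay in the gene span or within 3 kb of it. By this count 1492 of the 20542 protein-coding genes (7.26%) had an f/f-only region, and 4.46% of the common f/f regions at protein-coding genes were f/f-only. Gene length differs between the lists, so that the share of regions is given beside the count of genes. That share was not adjusted for distance to starts or for standing, with which the f/f-only share varied. The cadherins and mesenchymal transition factors had f/f-only regions at 7 of 28 genes and for 10.2% of their 88 common f/f regions. Of these 9 f/f-only regions, 3 were at the long gene Cdh12. The axon guidance genes had f/f-only regions at 10 of 47 genes and for 7.14% of 224 regions. Of these 16 f/f-only regions, 4 were at Sema5a and 3 at Slit3. The regulators of the actin skeleton had f/f-only regions at 17 of 62 genes and for 5.08% of 433 regions. In further lists only the share of regions lay close to that over all genes, 4.46%. These were ion channels (9 of 50 genes, 4.62% of regions) and collagens and proteoglycans of the matrix (12 of 74, 4.33%). The BMP and TGF-beta pathway (6 of 49, 4.14%) and the Hippo pathway (5 of 29, 3.88%) were the others. By genes, each of these lists lay above the 7.26% over all genes, the lowest being the BMP and TGF-beta pathway at 12.2%.

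For the other lists the regions were 5 of 158 at osteoblast regulators (3.16%), 2 of 64 at AP-1 factors (3.13%), 1 of 37 in the calpain system (2.70%), 4 of 148 at matrix proteases (2.70%), 5 of 199 at receptor tyrosine kinases and growth factors (2.51%), 4 of 202 at integrins and focal adhesion genes (1.98%) and 4 of 222 in the Wnt pathway (1.80%). These are few regions, and no list was tested against the share over all genes. Counted by genes, osteoblast regulators (4 of 44, 9.09%) and integrins and focal adhesion genes (4 of 39, 10.3%) lay above the 7.26% over all genes, and the Wnt pathway (4 of 77, 5.19%) below it. Among osteoblast regulators, Runx2, the master factor of the lineage, had 2 f/f-only regions of 16 common ones. The first (chr17:44645105-44645568) stood at 20.6, 12.7 and 20.3 and the other (chr17:44718169-44718858) at 7.35, 5.62 and 7.61, both low in each list. At Runx2, the f/f libraries had 19, 21 and 24 regions with a peak and the KO libraries 16, 16 and 8. Dlx3, a homeobox factor of bone and teeth, Ghr, the growth hormone receptor, and Phospho1, a phosphatase of matrix vesicles, had 1 each, of 4, 11 and 2 regions.

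In the BMP and TGF-beta pathway the receptors Acvr1 (2 of 5), Acvr1b (1 of 6) and Acvr2b (1 of 5), the ligand Bmp3 (1 of 3), the transducer Smad9 (1 of 2) and the target Id2 (1 of 4) had f/f-only regions. The 2 regions at Acvr1 stood at 20.6, 23.7 and 36.8 (chr2:58505395-58506141) and at 34.3, 11.8 and 27.3 (chr2:58565165-58565623). In the Wnt pathway, the ligand Wnt6, the nuclear factors Tcf7l1 and Tcf7l2 and the polarity gene Prickle2 had 1 each, of 5, 9, 9 and 13 regions. The region in Tcf7l2 (chr19:55867772-55868403) stood at 25.4, 23.7 and 47.3. The calpain system had a single one, at the protease gene Capn2, of 6 regions (chr1:182511816-182512190), at 36.7, 39.7 and 35.03.

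Other list genes with 2 f/f-only regions were Bach2, a bZIP repressor, Arhgef3 and Dock1, activators of small GTPases, Myh10, a nonmuscle myosin heavy chain, Col23a1, a transmembrane collagen, Adam19, a sheddase, Slit1, a Robo ligand, and the channel subunits Cacnb4 and Scn8a. Bach2 had more regions with a peak in KO replicates 1 and 2, 39 each, than in the f/f libraries, with 27, 28 and 32, besides its 2 f/f-only regions of 24. At Adam19 the f/f libraries had 7, 8 and 12 and the KO libraries 5, 7 and 3. The strongest region of these genes was in Scn8a, a sodium channel (chr15:101011371-101011678), at 52.1, 49.2 and 65.5. A single f/f-only region at Sema3e, a secreted semaphorin (chr5:14030755-14031284), stood as high, at 55.0, 50.3 and 59.0, and is named here after its values were seen.

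Most f/f-only regions stood alone. Within 25 kb of each other, 2349 had no f/f-only neighbour, 142 pairs formed, and 10 groups of 3 and 2 groups of 4. A group of 4 lay between chr17:31121855 and 31162984, at the trefoil factor genes Tff1, Tff2 and Tff3, which encode secreted peptides of mucous epithelia. All 4 common f/f regions of that stretch were f/f-only, and no KO library had any peak region there. Each f/f library had peaks at these 4 regions only, where the rule fixes the absence from KO. The strongest, chr17:31138187-31139129, stood at 46.7, 46.5 and 60.5, the other 3 at a mean of 8.08 to 22.5. The second group of 4 lay within 13572 bp near Mageb1 on chromosome X, with a mean standing of 19.8 to 38.2, and the KO libraries had 3, 2 and 1 regions with a peak there, against 6 in each f/f library.

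Groups of 3 in Atrnl1 (chr19:57816530-57826157) and Tex2 (chr11:106515230-106528363) held no KO peak either. In both stretches each f/f library had peaks at these 3 regions only, where the rule fixes the absence from KO. The strongest region of the Atrnl1 group stood at 61.8, 53.7 and 51.7. A group of 3 at the predicted genes Gm40139 and Gm40190 on chromosome 3 stood at a mean of 13.6 to 28.2. At the other end, the 5 regions farthest from any gene were 220776 to 335009 bp from the nearest span, on chromosomes 5, 16, 17 and 11. The farthest, chr5:41006568-41007094, stood at 39.2, 47.6 and 41.9, and 1 on chromosome 11 lay 339059 bp from the start of the cartilage factor Sox9, at 4.82, 12.7 and 23.5.

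By chromosome, the share of common f/f regions that were f/f-only was highest on chromosome 11, with 337 of 4468 (7.54%), and lowest on chromosome 18, with 50 of 1292 (3.87%). Among 439 windows of 5 Mb with 20 or more such regions the median share was 5.04%, and 19 windows had none. In 4 windows the share was 20% or more, on chromosome 16 from 60 to 65 Mb (11 of 35, 31.4%), chromosome 4 from 70 to 75 Mb (5 of 20), chromosome 12 from 10 to 15 Mb (6 of 27) and chromosome X from 90 to 95 Mb (8 of 39). Next to the left-out segments, the share was 11.0% and 8.90% in the 5 Mb before and after that of chromosome 4, and 8.99% and 3.70% around that of chromosome 16. The 30 regions of the 4 windows are few of the 2671.

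KO peaks were not far from the f/f-only regions. The nearest peak of any KO library lay at a median of 7296 bp, against 5718 bp to the next KO peak for shared regions, and within 500 bp for 97 of them (3.63%). To see whether shared sites nearby also stood lower in KO, the 1067 shared regions within 10 kb of an f/f-only region were compared with 18852 over 100 kb from any. Ranked among the shared regions of each library, the near ones stood 1.37, 0.775 and 0.0720 percentiles above the far ones in f/f replicates 1, 2 and 3, and 1.09, 0.631 and 0.388 in KO. The means were 0.739 ± 0.651 (SD, n = 3) and 0.704 ± 0.359 (SD, n = 3), and the difference, f/f minus KO, of 0.0351 was smaller than the spread between libraries (exact permutation test over 20 assignments, two-sided, p = 1.0, where 0.1 is the smallest possible). With ranks by fold in place of −log10 q the difference was -3.99 (exact permutation test, two-sided, p = 0.1), so that its direction depended on the ranking.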

How the data were processed

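ATAC-seq peak lists of OB Fam20c KO and OB Fam20c f/f, 3 libraries each, were used, 1 per library and not pooled. The authors used Trimmomatic for trimming, BWA for alignment to mm10 and MACS2 2.1.2 for peak calling, with q-values below 0.05. The treatment of duplicates and blacklisted regions is not given in the sources used here. The deposited lists give for each peak a score, the fold over local background (a ratio), the −log10 p and the −log10 q, and the lowest −log10 q lay at the authors' threshold. Read numbers were not analysed here, and the length of a list does not stand for the depth behind it. The paper lists clean reads per library, where KO replicate 3 had more than f/f replicate 1 and fewer than the others. Intervals cover counting error only.

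The f/f-only regions and the gene lists were chosen with earlier results of these data known. Peaks sharing 1 bp were merged. Any overlap with a left-out segment left a region out. Places came from RefSeq GRCm38.p6. Starts of 17492 protein-coding genes came from its promoter table, and both span ends were used for 4395 others. Named were the 20 protein-coding genes with most f/f-only regions, all others with 3 or more, the 10 regions with the highest standing overall and within 1 kb of a start, the 5 largest groups, the 5 regions farthest from genes, Fam20c, and list genes with 2 or more regions. Of the genes with 3 or more, 1 is not reported here. List genes with 1 region were named beside them for their pathway. No test was run on what the rule used. The comparison of neighbouring shared regions used an exact permutation test. The merging and this test were tested on simulated data. Alternatives were other rules for peaks, other distances and spans, each library left out, and the replicate number as a block. Python 3.11.15, numpy 2.4.6, pandas 2.3.3 and scipy 1.17.1 were used.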

Additional observations from a re-analysis of the deposited data

How the results depend on the processing

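The number of f/f-only regions, 2671, was 6402 with a peak in at least 2 of 3 f/f libraries and 889 with the same number of peaks from each list, and leaving out 1 library gave 2696 to 4434. Without f/f replicate 1, f/f replicate 2 or KO replicate 2 it was 4419, 4434 and 4329. Without f/f replicate 3 or KO replicate 3 it was 2941 and 2696, although the rule asks for fewer lists in each of these cases. The number of genes with 3 or more f/f-only regions, 28, was 169 with at least 2 of 3 f/f libraries, 17 with a −log10 q of 5 or more and 0 with equal lists, and 29 to 84 with 1 library left out. Leaving out f/f replicate 1 gave 73, f/f replicate 2 84, KO replicate 1 59 and KO replicate 2 74. The median standing, 24.1, was 15.7 with equal lists and 20.04 to 25.2 with 1 library left out. The share outside every gene span, 38.1%, was 33.1% with equal lists, 35.7% with fixed windows around summits, 46.5% with protein-coding genes only, 29.0% with spans extended by 3 kb, and 37.9% to 38.4% with 1 library left out. The share within 1 kb of a start, 5.28%, was 11.2% with fixed windows around summits, 15.4% within 5 kb, and 4.64% to 5.30% with 1 library left out. Under the other alternatives the counts stayed within 1.5 times, the shares within their 95% interval and the standing within the SD between libraries. The neighbour difference of 0.0351 (exact permutation p = 1.0) was -0.0381 with the 4 windows of high share left out (p = 1.0), -0.154 without KO replicate 3 (p = 0.5), -3.99 with ranks by fold (p = 0.1) and 1.39 within 50 kb (p = 0.1), by exact permutation. With 1 library left out it ran from -0.154 to 0.949. The value thus changed sign with the setting. Settings at p = 0.1, the smallest that exact permutation allows, pointed opposite ways. The difference there was positive within 50 kb and without f/f replicate 1 (0.416), and negative with ranks by fold.

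With the replicate number as a block the difference was the same 0.0351 (exact permutation within 3 pairs, p = 1.0, smallest possible 0.25). Same-numbered libraries deviated together with correlations of 0.0670, -0.105 and -0.126, so that the numbers did not pair the libraries. The cause of these changes was not tested. With only peaks of a −log10 q of 5 or more, 1718 of the 2671 regions overlapped one of the 2145 that the rule then gave. How far depth set the absence of peaks from a list was not tested.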

Other observations

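Genes of the early B-cell factor family were looked at after the highest f/f-only region was seen near Ebf2 and most regions in Zfp423, whose product binds these factors. Ebf1 held 2 f/f-only regions of 12 common f/f regions, and its span had 14, 13 and 16 regions with a peak in f/f and 12, 14 and 5 in KO. Ebf3 held 2 of 5, with 5 regions with a peak in each f/f library and 3, 3 and 1 in KO. Ebf2 and Ebf4 held none in their spans, of 1 and 2 regions. Zfp521, the relative of Zfp423, held none of 6, with 7, 7 and 8 regions in f/f and 6, 7 and 4 in KO. These genes were chosen with values known, and no test was run.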
